A study of Mus musculus with 8 samples.

Results

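The genes described here are 6 subunits of voltage-gated sodium channels, Scn1a, Scn3a, Scn4a, Scn10a, Scn3b and Scn4b, out of 22909 named genes on the array. They were taken by name, and their probes were those whose RefSeq accession belongs to them, 12 of 56605 probes. Other sodium channel genes were not analysed here. Transcripts of the mouse heart ventricle were measured on 8 one-colour (Cy3) Agilent arrays on 1 slide. The 4 groups had 2 arrays each and were homozygous Tnnt2 ΔK210 knock-in (KI) mice at birth (0 day), wild-type (WT) mice at birth, KI mice at 1 week and WT mice at 1 week. The knock-in removes lysine 210 of cardiac troponin T, a thin-filament protein, and is a mouse model of dilated cardiomyopathy. Every group shared the same handling, with ventricles of 3 animals combined, TRIzol extraction and 100 ng of RNA labelled. Whether both arrays of a group had pools of their own is not in the labels, so errors and p-values cover only array-to-array spread, which could be technical.

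Voltage-gated sodium channels carry the inward current that starts the cardiac action potential and lets it spread through the ventricle. A large alpha subunit forms the pore, and small beta subunits, which are also cell adhesion proteins, alter the channel's gating and its amount at the membrane. Scn1a, Scn3a, Scn4a and Scn10a encode alpha subunits best known from brain, from developing brain, from skeletal muscle and from sensory neurons, in that order. Scn3b and Scn4b encode beta subunits, and human variants of both, and of SCN10A, have been linked to disturbed heart rhythm.

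All 4 birth arrays have the same sample in the deposited scanner files and in the deposited value table, but 3 of the 4 arrays at 1 week do not. These arrays are called A to D. In the value table, B and C are KI and A and D are WT. In the scanner files, C and D are KI and A and B are WT. The value table's genotypes are used below, with those of the scanner files given as the scanner-file record. The array positions in the deposited file names place the birth arrays in row 1 of the slide and those of 1 week in row 2. Age therefore cannot be told apart from row, nor genotype at birth from column. The 75th percentile of probe signal was 511 on array A, 523 on B, 468 on C and 343 on D, and 440 to 466 on the birth arrays. Ventricular myocyte markers were well above background on every array (6 of 6 genes). Levels below are log2 of the processed signal relative to the array's own 75th percentile, and levels of different probes are not comparable.

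Of the 12 probes, 5 were well above background on all 8 arrays, 6 on none and 1, that of Scn4b, on 6. Scn3a, Scn4a, Scn10a, Scn3b and Scn4b passed the signal filter and were tested, and Scn1a was not. Scn1a had 3 probes, and the processed signal of its brightest was 3.39 to 10.4, not well above background on any array. A difference in Scn1a was therefore not detectable with these arrays. Scn3a also had 2 further probes, and Scn3b 1, that were well above background on no array.

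**Figure D1:**
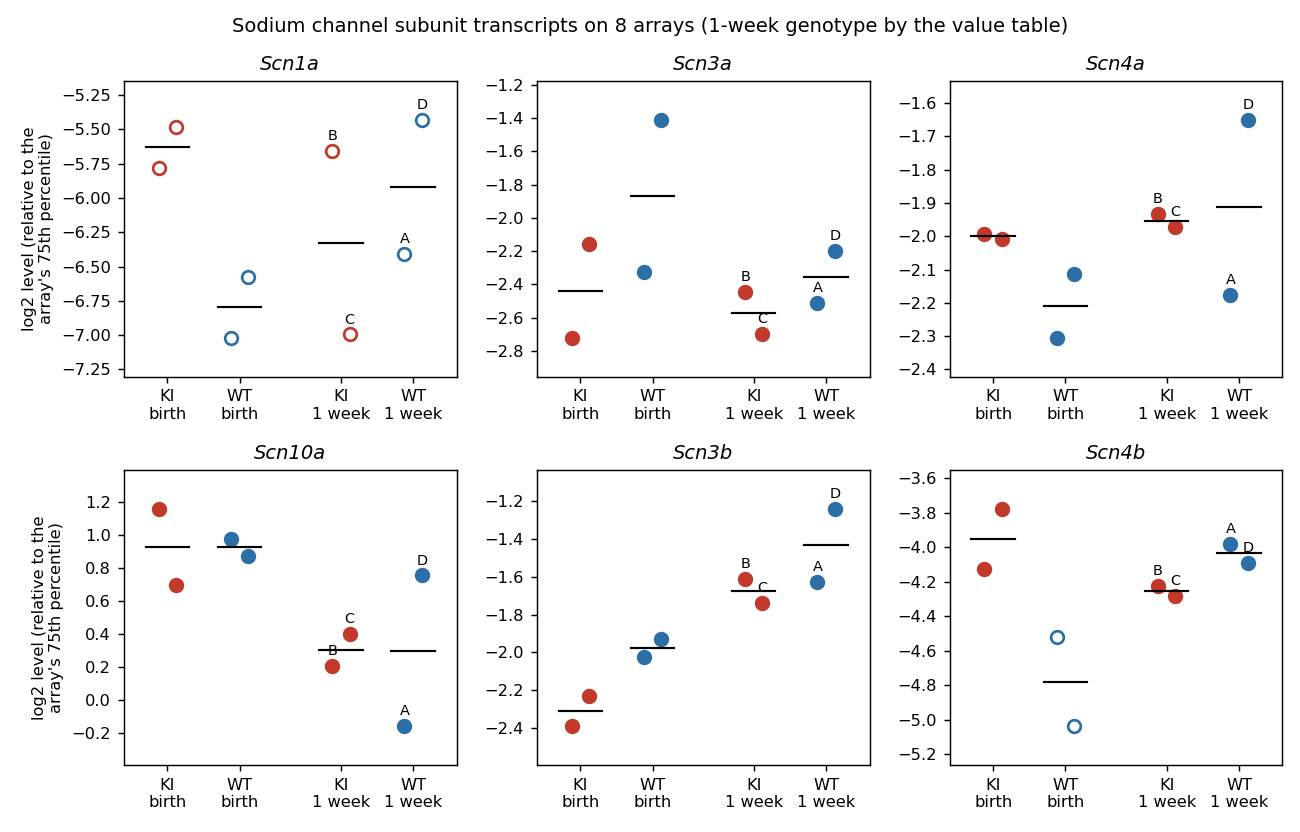
Log2 level of each subunit's brightest probe on each array (circles, with the group mean as a line), in KI (red) and WT (blue), with 1-week genotypes from the value table and letters naming the 1-week arrays. Open circles are arrays where the probe was not well above background. Scn3b lies higher on every 1-week array than on every birth array, and Scn10a is lowest on array A.

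Promoter sequences from RefSeq (GRCm38.p6) were at hand for 4 members, Scn1a, Scn4a, Scn10a and Scn4b. The 250 bases before the annotated start are printed for Scn10a and Scn4b, the members with an entry that passed a test in at least 1 comparison below. The Scn10a window is chr9:119719033-119719282 on the minus strand, and the Scn4b window is chr9:45138374-45138623 on the plus strand.
Scn10a: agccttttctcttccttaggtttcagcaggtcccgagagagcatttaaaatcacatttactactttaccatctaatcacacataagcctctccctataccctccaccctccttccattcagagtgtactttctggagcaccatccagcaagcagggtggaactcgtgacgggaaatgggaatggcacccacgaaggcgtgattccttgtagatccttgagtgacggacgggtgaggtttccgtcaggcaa
Scn4b: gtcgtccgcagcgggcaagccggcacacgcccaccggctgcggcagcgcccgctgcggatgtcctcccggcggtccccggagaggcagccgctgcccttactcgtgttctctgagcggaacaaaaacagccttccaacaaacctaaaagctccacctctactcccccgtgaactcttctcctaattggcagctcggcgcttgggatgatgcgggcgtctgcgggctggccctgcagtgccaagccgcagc
Both windows were searched on both strands for 5 motifs, and neither holds any of them, so no letters are in capitals. The motifs, with the share of all 32851 promoter windows that hold each, were the E-box CANNTG (66.2%), the TATA box TATAAA (12.4%), the MEF2 site (3.2%), the T-box half-site GGTGTGA (3.33%) and the GC box GGGCGG (32.7%). Of the other members with an entry, Scn1a holds 1 E-box, 235 bases before its start, and Scn4a holds none of the 5. The GC content was 49.6% for Scn10a and 66% for Scn4b, against a median of 52.4% over all windows.

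KI against WT at birth asked whether the subunits differed in the newborn mutant ventricle. No member passed at an adjusted p under 0.05 in limma, against 0.0381% of all 15744 genes tested, and 1 of 5 had an unadjusted p under 0.05, against 4.71% of all genes. That member was Scn4b, a beta subunit known for its part in resurgent sodium current. Scn4b stood at -4.13 and -3.78 in KI and at -4.52 and -5.04 in WT. Both KI arrays lay above both WT arrays, and Scn4b was not well above background on either WT array. With WT signal raised to the array's lowest signal well above background where it lay under that, Scn4b was 1.74-fold higher in KI. This is not a lower limit. The fitted difference was +0.83 ± 0.20 (SE, n = 2 arrays a group), and it did not pass in limma (adjusted p = 0.585). With another background correction, normexp, the difference was +0.12.

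Among the alpha subunits at birth, Scn10a was at 1.16 and 0.70 in KI and at 0.98 and 0.87 in WT. The genotypes overlapped, and KI minus WT was 0.0026 (95% interval -0.71 to 0.72). Scn3a, at -2.72 and -2.16 in KI and -2.33 and -1.41 in WT, also overlapped, with a difference of -0.57 (-1.34 to 0.20). Scn4a was at -1.99 and -2.01 in KI, just above the -2.30 and -2.11 of WT, and its difference of 0.21 had an interval of -0.23 to 0.65. The beta subunit Scn3b, known to alter channel inactivation, was at -2.39 and -2.23 in KI, below -2.02 and -1.93 in WT. Its difference was -0.33 (-0.72 to 0.052). Groups that do not overlap occurred in 31.9% of all genes tested at birth.

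**Figure D2:**
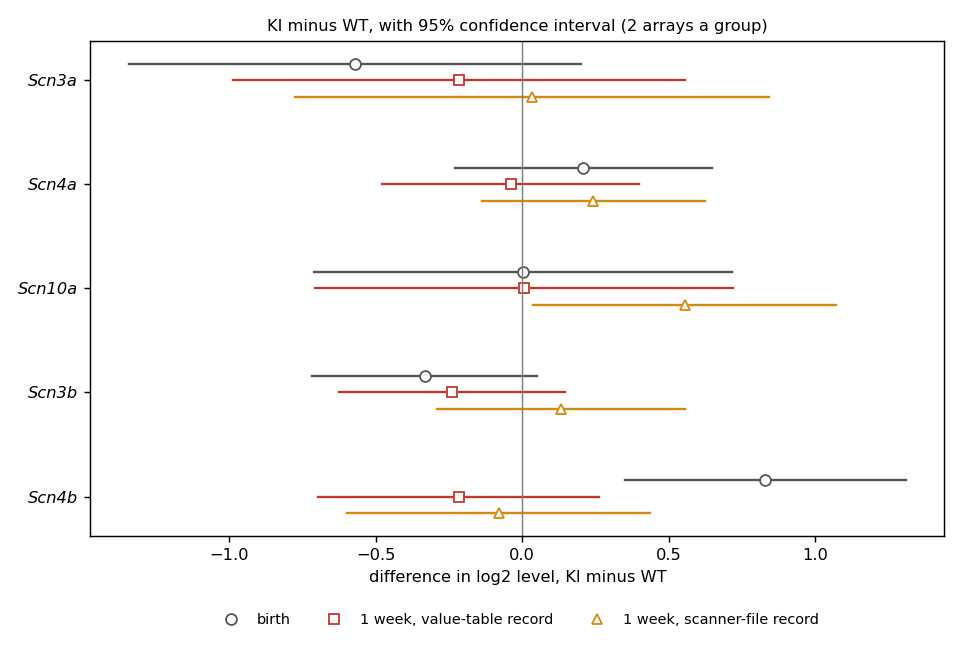
KI minus WT difference in log2 level for the 5 tested subunits, with 95% confidence intervals, at birth and at 1 week in both records (2 arrays a group). Every marker is open because no adjusted p was under 0.05. The intervals of Scn4b at birth and of Scn10a in the scanner-file record leave out 0 before adjustment over all genes.

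KI against WT at 1 week asked the same question after the first postnatal week. No member passed in limma, against 0.0508% of all genes in the value-table record and 0.00635% in the scanner-file record. At an unadjusted p under 0.05 there were 0 of 5 in the value-table record, against 7.07% of all genes, and 1 of 5, Scn10a, in the scanner-file record, against 9.87%. Scn10a was at 0.21 and 0.40 in KI (arrays B and C) and at -0.16 and 0.75 in WT (arrays A and D). The 2 WT arrays held the lowest and the highest of the 4 values, and KI minus WT was 0.0060 (95% interval -0.71 to 0.72). In the scanner-file record KI held arrays C and D, both above A and B, a separation found in 40.1% of all genes tested, and the difference was +0.55 ± 0.22, which did not pass in limma (adjusted p = 0.489).

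Scn3b was at -1.61 and -1.74 in KI and at -1.63 and -1.24 in WT, a difference of -0.24 (-0.62 to 0.15). Scn4b was at -4.23 and -4.28 in KI and at -3.98 and -4.09 in WT, a difference of -0.22 (-0.70 to 0.26), and the genotypes did not overlap. Such non-overlap occurred in 37.9% of all genes tested. Scn3a differed by -0.22 (-0.99 to 0.55) and Scn4a by -0.040 (-0.48 to 0.40). In the scanner-file record Scn3a, Scn4a and Scn3b had the opposite sign, at 0.033, 0.24 and 0.13, and Scn4b was at -0.081.

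The difference between the 2 genotype effects, age by genotype, passed for no member in limma, against 0.00635% of all genes in the value-table record and 0% in the scanner-file record. Only Scn4b had an unadjusted p under 0.05, in both records, against 4.84% of all genes in the value-table record and 6.3% in the scanner-file record. Scn4b had the largest size among the 5, -1.05 ± 0.29 in the value-table record (adjusted p = 0.851 in limma) and -0.91 ± 0.31 in the scanner-file record (adjusted p = 0.777 in limma). It was -0.32 with normexp. This rests on the WT birth arrays, where Scn4b was not well above background.

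Because the 4 arrays of each age are the same in both records, the ages were also compared with genotype left out, a comparison chosen after seeing the data. Of 5 members tested, Scn3b was higher at 1 week than at birth and Scn10a was lower, against 33.3% of all 15173 genes called (16.2% higher and 17.1% lower). A count of 2 of 5 members is thus near the background.

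Scn3b stood at -1.63, -1.61, -1.74 and -1.24 at 1 week on arrays A to D, against -2.39 and -2.23 in KI and -2.02 and -1.93 in WT at birth. Every 1-week array lay above every birth array, a separation found in 36.4% of all genes tested. The mean was -1.55 ± 0.22 at 1 week and -2.14 ± 0.21 at birth (SD, n = 4 each), and Scn3b rose by 0.59 ± 0.14 (SE; adjusted p = 0.0118 in limma). The exact two-sided permutation test gave p = 0.0286, the smallest that 4 against 4 arrays allow. The call was lost with normexp (+0.28, adjusted p = 0.0692 in limma) and with the mean of both Scn3b probes (+0.46, adjusted p = 0.171), of which 1 was not above background.

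Scn10a stood at -0.16, 0.21, 0.40 and 0.75 at 1 week on arrays A to D, against 1.16 and 0.70 in KI and 0.98 and 0.87 in WT at birth. Array D lay above the lowest birth array, so the ages overlapped. Scn10a fell by 0.63 ± 0.19 (adjusted p = 0.0308 in limma), with means of 0.30 ± 0.38 at 1 week and 0.93 ± 0.19 at birth (SD, n = 4 each). The exact two-sided permutation p was 0.0571. The call was lost without array A (-0.47, adjusted p = 0.0606 in limma), without KI birth replicate 1 (adjusted p = 0.0808), without either WT birth array or array B, and with no signal filter.

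A second Scn10a probe, with another transcript accession, was well above background on all arrays and dimmer. It read -4.35, -3.87, -3.97 and -2.998 at 1 week on arrays A to D, against -3.10 and -2.997 in KI and -3.27 and -3.23 in WT at birth. It too was lowest on array A and highest at 1 week on array D. Its difference was -0.65 with an exact two-sided permutation p of 0.114, and it followed the brighter probe over the 8 arrays with a Pearson r of 0.883, as a description of probes that share their arrays.

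**Figure D3:**
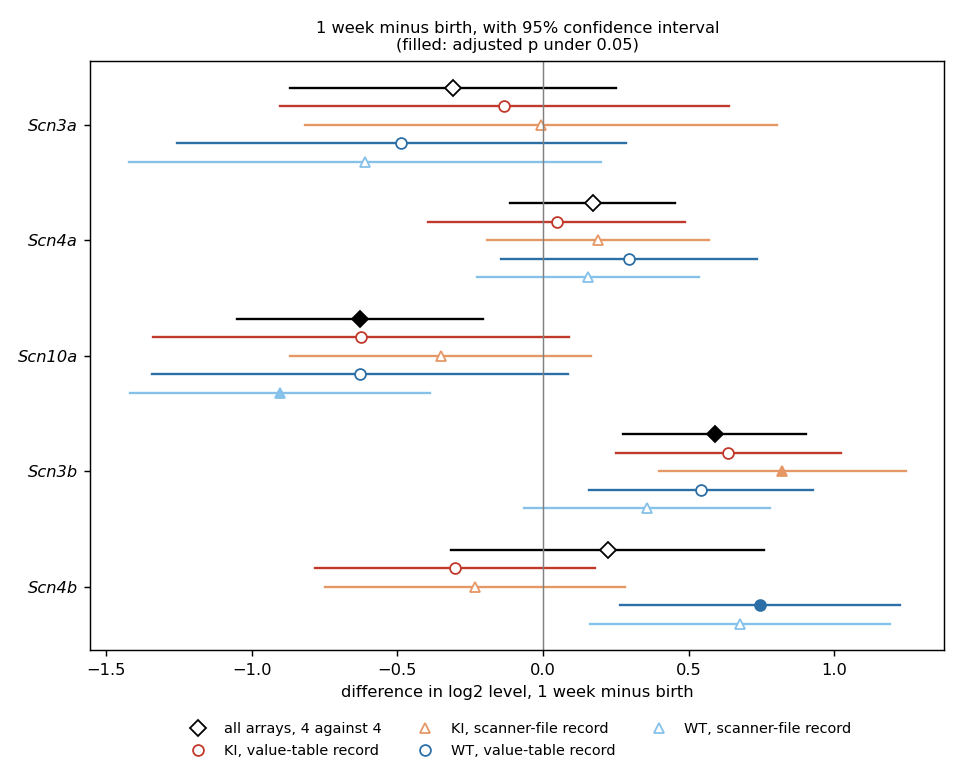
1 week minus birth in log2 level for the 5 tested subunits, with 95% confidence intervals, over all arrays (4 against 4) and within each genotype in both records. Filled markers have an adjusted p under 0.05. Scn3b lies right of 0 and Scn10a left of 0 in every comparison drawn, while Scn4b lies right in WT and left in KI.

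Within WT, 1 week against birth called 1 of 5 members in the value-table record, against 19% of all genes. Scn4b rose, at -3.98 and -4.09 at 1 week (arrays A and D) against -4.52 and -5.04 at birth. The ages did not overlap, which held for 62.8% of all genes tested. Scn4b was not well above background on either WT birth array. With birth signal raised to the array's lowest signal well above background where under it, Scn4b was 1.64-fold higher at 1 week. This is not a lower limit. The fitted difference was +0.74 ± 0.20 (adjusted p = 0.0450 in limma). The call held in 3 of 18 alternatives, with adjusted p from 0.0396 to 0.265 in limma over the 18. It was lost in the scanner-file record (+0.68, adjusted p = 0.0903), with normexp (+0.23), quantile normalization (+0.53), median scaling (+0.58) and no signal filter, with only the arrays compared, a trended prior variance or a replicate block (adjusted p = 0.0586), and without any 1 array other than WT birth replicate 1. Without WT birth replicate 2 the difference was +0.49. In the scanner-file record Scn10a was called in its place, -0.90 ± 0.22 (adjusted p = 0.0419 in limma), against 12.7% of all genes. Scn10a was at -0.63 (adjusted p = 0.178) and Scn3b at +0.54 (adjusted p = 0.0589) in the value-table record in limma, without passing.

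Within KI, no member passed in the value-table record, against 10.6% of all genes in limma, and 1, Scn3b, had an unadjusted p under 0.05, against 25.6% of all genes. Scn3b was at +0.64 ± 0.16 (adjusted p = 0.0536), and both 1-week arrays lay above both birth arrays, as in 1 direction or the other for 60.1% of all genes tested. In the scanner-file record Scn3b was called, +0.82 ± 0.18 (adjusted p = 0.0273 in limma), against 15.2% of all genes. Scn4b differed by -0.30 (-0.78 to 0.18) and Scn10a by -0.63 (-1.34 to 0.089). Scn3a and Scn4a passed in neither genotype, in either record.

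Markers of other cell types were read beside the members, and their part in any result was not tested. The summed level of 4 atrial markers (Myl7, Myl4, Sln and Nppa, each well above background on every array) was 62.0, 399, 473 and 468 on arrays A to D, in units of the array's 75th percentile. At birth it was 580 and 560 in KI and 430 and 473 in WT. Array A was lowest in this sum, in each of the 4 markers and in both Scn10a probes. The sum is largely that of Nppa and Myl4, which on arrays B to D lay within or below their birth range. Sln read 4.04, 3.78 and 5.03 on arrays B to D, above every birth array (1.16 to 3.08). Myl7 read 5.90, 6.10 and 6.91 there, against 5.23 to 5.98 at birth. In bulk tissue, fewer cells of a type and less RNA per cell cannot be told apart.

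**Figure D4:**
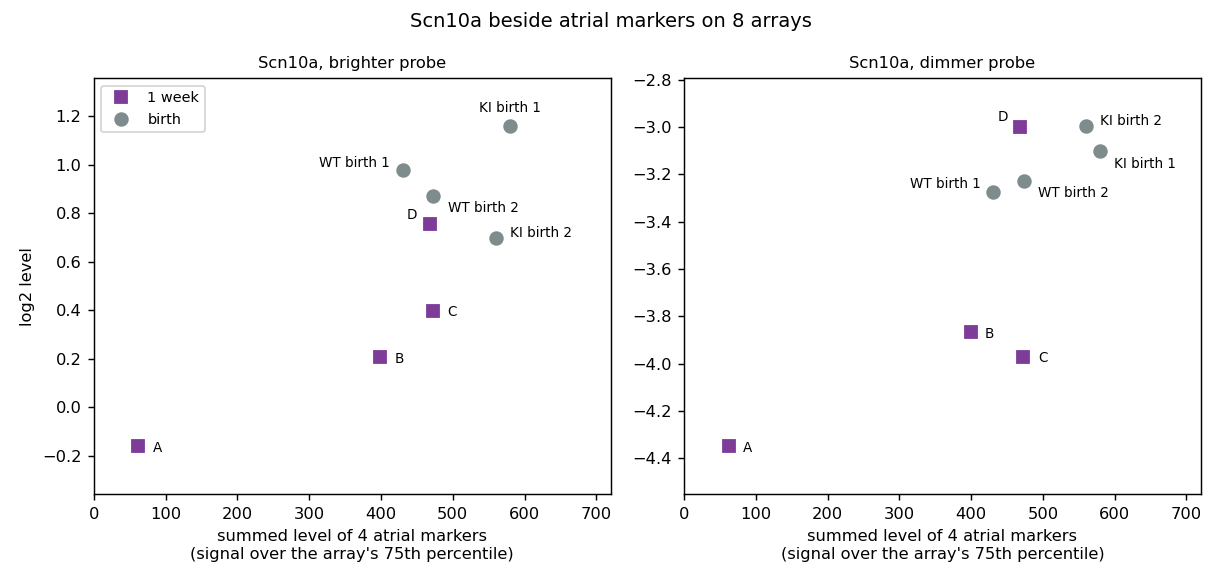
Log2 level of the 2 Scn10a probes against the summed linear level of 4 atrial markers on the 8 arrays, 1-week arrays as squares and birth arrays as circles. Array A is lowest on both axes in both panels, and the other 7 arrays span 399 to 580 on the marker axis. The marker sum is largely that of Nppa and Myl4.

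Of 9 neuronal markers, 7 were well above background on all arrays. The summed level of the 9 was 41.2 to 60.2 at 1 week and 27.3 to 45.7 at birth. This sum is largely that of Snap25, at a log2 level of 4.56 to 5.64. Dbh was higher at 1 week, 2.07 to 2.31 against -0.010 to 0.64 at birth. Also higher on every 1-week array were Th (-1.21 to -0.75 against -1.57 to -1.29) and Stmn2 (1.17 to 2.10 against 0.40 to 1.03). So was Tubb3 (-2.38 to -1.49 against -2.73 to -2.40), while Snap25 and Prph overlapped between the ages. Elavl4 was lower, -2.04 to -1.75 against -1.70 to -1.58. Ages that do not overlap, in 1 direction or the other, occurred in 36.4% of all genes tested. Skeletal muscle markers, relevant to Scn4a, summed to 1.69 to 2.39 at 1 week and 3.0 to 4.74 at birth. That sum is largely Tnni2, at a log2 level of 0.20 to 0.68 at 1 week and 1.16 to 1.91 at birth. Myh2, Myh4, Actn3 and Myod1 were well above background on no array. Of 6 conduction system markers, 5 were above background on all arrays and Isl1 on none, and they summed to 8.94 to 12.3 at 1 week and 6.43 to 8.42 at birth. That sum is largely Tbx3 and Cacna1g. Tbx3 was at 2.51 to 3.17 at 1 week and 1.86 to 2.22 at birth, while Cacna1g, Hcn4, Shox2 and Cntn2 overlapped between the ages. Among the conduction system markers at birth, Tbx3 overlapped between the genotypes, at 2.10 and 1.86 in KI and 2.02 and 2.22 in WT. Hcn4, Cacna1g and Shox2 were higher on both KI arrays than on both WT arrays. Non-overlap in 1 direction or the other occurred in 31.9% of all genes tested. The adhesion molecule Cntn2 read -0.65 and -0.80 in KI and -2.51 and -2.24 in WT at birth. At 1 week Cntn2 read -0.87 and -0.996 on arrays B and C, KI in the value table, and -2.39 and -2.41 on arrays A and D, WT in the value table. In the scanner files each 1-week genotype holds 1 high and 1 low array of Cntn2. The cause of the Cntn2 difference was not tested.

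Of 25 partners of sodium channels and sodium handling, none was called by genotype at either age, nor in age by genotype, in limma in either record. At an unadjusted p under 0.05 there were 1 at birth, 2 at 1 week and 0 in age by genotype in the value-table record, against 4.71%, 7.07% and 4.84% of all genes. In the scanner-file record there were 1, 3 and 1 in that order, against 4.3%, 9.87% and 6.3%. The smallest p was that of Slc8a1 at birth (+0.47 ± 0.18) and of Ank3 at 1 week (+0.39 ± 0.12) in the value-table record. Between the ages, 24 were tested over 4 against 4 arrays, of which 2 were higher at 1 week and 6 lower, a share of 8 of 24 beside 33.3% of all genes. The median difference of the 24 was -0.11, against -0.031 over all genes. Fgf14, which binds the channel's intracellular tail, was well above background on all 4 arrays at 1 week and on none at birth. With birth signal raised in the way given for Scn4b, Fgf14 was 1.99-fold higher at 1 week, which is not a lower limit. The normexp difference was +0.31. Fgf14 is 1 of the 2 counted as higher, but it passed the signal filter only through the 1-week arrays, so its count among them is no support.

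The 6 lower genes included the membrane anchor Ank3, known for clustering sodium channels at the axon initial segment. Ank3 was at 3.24, 3.64, 3.66 and 3.29 at 1 week on arrays A to D, against 4.30 and 4.201 in KI and 4.21 and 4.05 in WT at birth, with no overlap, and fell by 0.73 ± 0.12. Nedd4l, a ubiquitin ligase of ion channels, fell by 0.63, the desmosomal Pkp2 by 0.53 and the sodium-calcium exchanger Slc8a1 by 0.59. Fgf11, of the same family as Fgf14, fell by 0.55. Adjusted p for these 5 genes was 0.00220 to 0.0350 in limma.

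**Figure D5:**
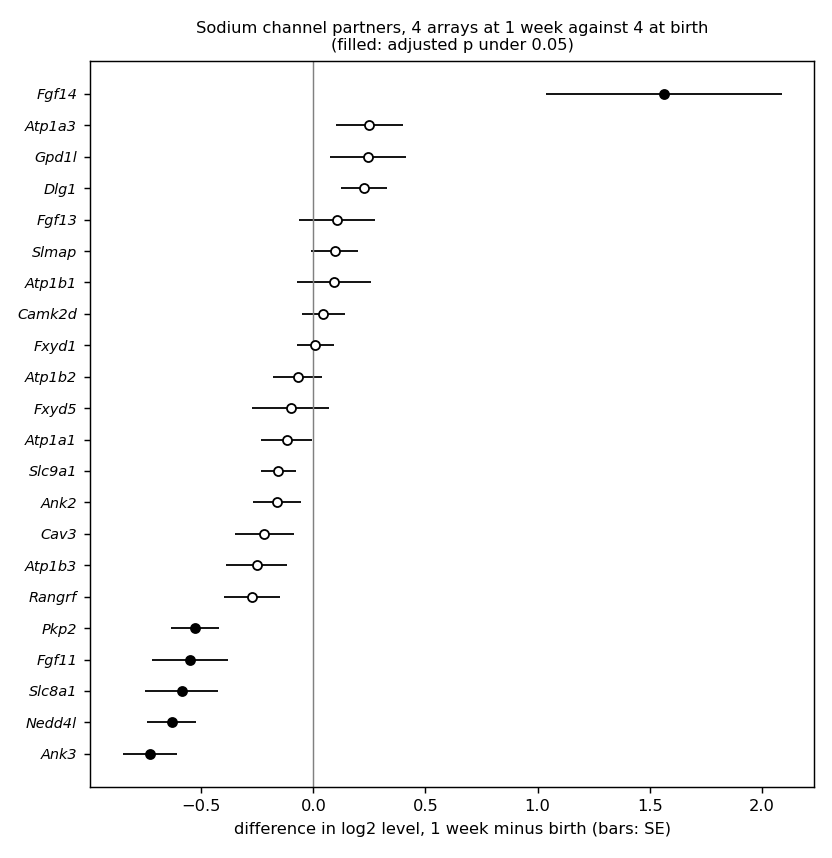
1 week minus birth in log2 level for 22 of the 24 tested partner genes (4 arrays against 4, bars are SE), with filled points where the adjusted p was under 0.05. Ank3 lies lowest at -0.73, and the point of Fgf14, at 1.56, rests on signal that was not well above background at birth.

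By the root mean square difference of centred log2 values over the 8 arrays, the genes most like Scn10a were Frmpd1 (0.109, Pearson r 0.976), Mdfi and Mapk13. Those most like Scn3b were Utp6 (0.0954, Pearson r 0.989), Pkd1 and Ptpre. For Scn4b they were Ltb4r1 (0.139, Pearson r 0.924), Tbxa2r and Itga2b. For Scn3a they were Ptpro, Plcd3 and Pik3r1, and for Scn4a they were Tns4, Terf2 and Slmap. All were picked as the closest among the tested genes over only 8 arrays. A high r follows from that choice, and shared regulation was not tested.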

How the data were processed

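The authors' deposited scanner files and value table hold processed intensity, corrected for background within the array and not normalized between arrays. The file headers give Feature Extraction version 11.0.1.1 and build mm9, and the submitters' processing notes give version 9.1. Flags (other) in the deposited files mark spots well above background, coded 0 and 1. Value-table columns were matched to scanner files over 56305 probes at a relative tolerance of 0.0001, and each equalled 1 file, 3 of them the file of another sample.

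Spots of a probe were averaged, log2 was taken of the deposited intensity, and each array was scaled by subtracting its 75th percentile over probes other than controls. Each gene was read from its brightest probe, and entered the tests when that probe exceeded background on both arrays of some group. Models with 4 group means covered all 8 arrays and used limma 3.58.1 (R 4.3.3; lmFit and eBayes, 4 residual degrees of freedom), with Benjamini-Hochberg adjustment over all genes and a threshold of 0.05. The comparison of 4 against 4 arrays by age was fitted the same way without genotype. There a gene entered when its probe exceeded background on all 4 arrays of an age, which left 15173 genes. With 2 arrays a group an exact permutation p cannot go below 0.333. In a test on simulated data for KI against WT at birth (15744 genes), limma called 47 of 100 genes with an added 2-fold change, 84 of 100 with a 4-fold change, and 7 unaltered genes. Both sets were changed in the same fit. Where fewer genes differ the adjustment is stricter, so these shares may be too high for the genotype comparisons. Symbols came from RefSeq accessions (GRCm38.p6), which named 32988 probes. That build differs from the array's, so coordinates belong to the promoter table alone.

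The members and lists were chosen with earlier results of these data known. All members were named. Some genes that the rule for partners and markers takes are not reported here. Partners were named if past the threshold (up to 8 a comparison, by p, in the comparison of 4 against 4), and the 3 genes closest to each member were named for likeness. The promoters were searched for 5 motifs. A search for the CCAAT box, added after the promoter letters had been read and matching Scn4b, was dropped for that reason. Alternatives covered the sample record, normexp (offset 50), other scalings and filters, the probe rule, the samples fitted, the prior variance, a replicate block and leaving out each array.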

Additional observations from a re-analysis of the deposited data

How the results depend on the processing

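No member was called for KI against WT at birth, at 1 week or in age by genotype in any alternative read for these comparisons. The scanner-file record was 1 of these alternatives, and the others were applied to the value-table record. For 1 week against birth in WT, the count of 1 became 0 with normexp, quantile normalization, median scaling, no signal filter, every probe fitted alone, only the arrays compared, a trended prior variance and the replicate block; leaving out 1 array gave 0 to 2. Scn4b, the member called, was called in 3 of 18 alternatives. Elsewhere other members took its place: Scn4a and Scn3b without array A (2 calls), Scn10a without array D (1 call) and in the scanner-file record, and Scn3b with the filter on all arrays. The count was 0 without either KI array at 1 week, WT birth replicate 2 or either KI birth array. For 1 week against birth in KI, the count of 0 became 1 with quantile normalization, median scaling, the filter on all arrays, only the arrays compared, the scanner-file record and a crossed replicate block (numbers exchanged in KI at 1 week, an alternative chosen after seeing the data); leaving out 1 array gave 0 to 1, with 1 without array A or D. For both genotypes together, the count of 2 became 1 with normexp, no signal filter and the mean of probes; leaving out 1 array gave 1 to 2, with 1 without array A, array B, either WT birth array or KI birth replicate 1. The cause was not tested. The replicate numbers are labels only: deviations of same-numbered arrays correlated at 0.286 between the genotypes at birth, 0.165 at 1 week, 0.153 between ages in WT and -0.137 in KI.

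Differences that did not pass also took the other sign. For KI against WT at birth, Scn10a was -0.055 with median scaling and -0.0025 with the percentile over spots, an alternative chosen after seeing the data. At 1 week, Scn10a was -0.015 with normexp, -0.023 with quantile normalization, -0.12 with the mean of probes and -0.019 with the percentile over spots. Scn4a was 0.0061 with quantile normalization, 0.055 with median scaling and 0.24 in the scanner-file record, where Scn3a was 0.033 and Scn3b 0.13. In age by genotype, Scn10a was -0.057 with normexp, -0.032 with quantile normalization, -0.22 with the mean of probes and -0.017 with the percentile over spots. There the mean of probes gave -0.044 for Scn3a and -0.18 for Scn3b, and the scanner-file record gave 0.033 for Scn4a. For 1 week against birth, Scn3a with the mean of probes was 0.046 in WT, 0.0020 in KI and 0.024 over both. Leaving out 1 array gave Scn10a -0.23 to 0.23 at birth, -0.45 to 0.46 at 1 week and -0.45 to 0.46 in age by genotype. It gave Scn4a -0.30 to 0.22 at 1 week and -0.51 to 0.013 in age by genotype. In age by genotype it gave Scn3b -0.099 to 0.29 and Scn3a -0.10 to 0.81. For 1 week against birth it gave Scn3a -0.41 to 0.15 in KI, and Scn4b -0.0025 to 0.42 over both genotypes. Median scaling moved the median of all genes to -0.21 for 1 week against birth in WT, against -0.042 with the 75th percentile and -0.022 with quantile normalization. It moved it to 0.12 for KI against WT at 1 week and to 0.18 in age by genotype. Signal over background limits Scn1a and Scn4b.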
